A study of Sus scrofa with 220 samples.

Results

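KLF4, KLF17, ESRRB and TBX3 are transcription factors known from naive pluripotency, and their RNA was followed here through the cells of the early pig embryo. The 4 genes were chosen by name, and each matched 1 of the 22840 gene entries of the expression tables: KLF4 (ENSSSCG00000005437), KLF17 (ENSSSCG00000024191), ESRRB (ENSSSCG00000002388) and TBX3 (ENSSSCG00000009865). All 4 were among the 14721 entries with TPM over 1 in at least 3 cells, which were the entries tested. TPM, transcripts per 1000000, is a level scaled for transcript length and for the reads of a cell.

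Naive pluripotency is the state of the unrestricted cells of the early inner cell mass, and it gives way to a primed state in the epiblast that will form the body. KLF4 and KLF17 are zinc finger factors of the Krüppel-like family. KLF4 is one of the classical reprogramming factors, and KLF17 marks naive cells in human embryos. ESRRB is an orphan nuclear receptor that sustains self-renewal of mouse naive cells, and TBX3 is a T-box factor that does so too and is also used in extraembryonic endoderm.

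The samples were 220 manually picked single cells of in vivo embryos, from artificially inseminated crossbred Large White and Landrace sows, sequenced with Smart-seq2, which reads whole polyadenylated transcripts. The labels gave 7 groups: 47 cells of the morula (M), 24 of the inner cell mass (ICM) and 28 of the trophectoderm (TE) of early blastocysts (EB), 25 of the epiblast (EPI) and 36 of the hypoblast (HYPO) of late blastocysts (LB), and 48 EPI and 12 HYPO cells of spherical embryos (Sph). No label names a treatment or an altered gene. TE cells of the 2 later stages were not collected by the authors, and LB embryos had been freed of TE by immunosurgery. Letters in the cell identifiers told the embryos apart, giving 8 M embryos, 10 EB, 6 LB and 4 Sph, and left 1 M cell without an embryo.

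Cells of the same embryo are not independent, so reads were added up by embryo within a label, and the 41 sums were compared. A sum held 1 to 19 cells, and total counts ran from 1012604 to 5696373 per cell. A level per embryo is log2(CPM + 1), where CPM is counts per 1000000 after TMM scaling. In a sum, more cells with a transcript cannot be told apart from more transcript per cell, so shares of cells are given beside it. Markers of the 3 later lineages followed the labels in EB and LB. The summed level of 8 TE markers had a median of 44543 TPM in TE and 364 TPM in ICM. That of 6 HYPO markers was 1036 TPM in LB HYPO and 22.7 TPM in LB EPI. That of 6 EPI markers was 1263 TPM in LB EPI and 37.2 TPM in LB HYPO. The HYPO and EPI lists held 8 markers each, of which 6 matched an entry. KRT8 and KRT18 gave most of the TE sum, with medians of 28352 and 12754 TPM in TE. The TE sum was also 4760 TPM in LB EPI and 31738 TPM in Sph HYPO. The comparisons share samples, since M, ICM and the EPI labels each enter several. An exception to the markers was the only TE cell of embryo E6-ER, with 0 counts of KRT8, GATA2 and GATA3 and 117.8 TPM of PDGFRA. It also had 0 counts of DAB2 and CLDN4, 1 count of KRT18 and 186 TPM of GATA6. But it held 174.2 TPM of the TE marker TFAP2A and 0 counts of the HYPO marker FN1. The tests against TE are given with and without it. Without it, shares of TE cells above TPM 1 were 40.7% for KLF4, 51.9% for KLF17 and 88.9% each for ESRRB and TBX3.

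Levels of different genes can be set side by side only in TPM. In M, the median cell held 157 TPM of TBX3, 115 TPM of KLF4, 72.4 TPM of KLF17 and 21 TPM of ESRRB. In ICM the order differed, with 127 TPM of KLF4, 110 TPM of KLF17, 31.8 TPM of TBX3 and 16.1 TPM of ESRRB. Only KLF17 had a median above 0 in LB EPI, at 37.9 TPM, and only TBX3 in LB HYPO and in Sph HYPO, at 19.9 and 15.2 TPM. No gene of the 4 had a median above 0 in Sph EPI. Judged by the ratio of counts to TPM, the KLF17 entry was 0.25 times and the ESRRB entry 0.431 times as long as that of KLF4, so the same number of reads gave fewer TPM for KLF4.

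**Figure D1:**
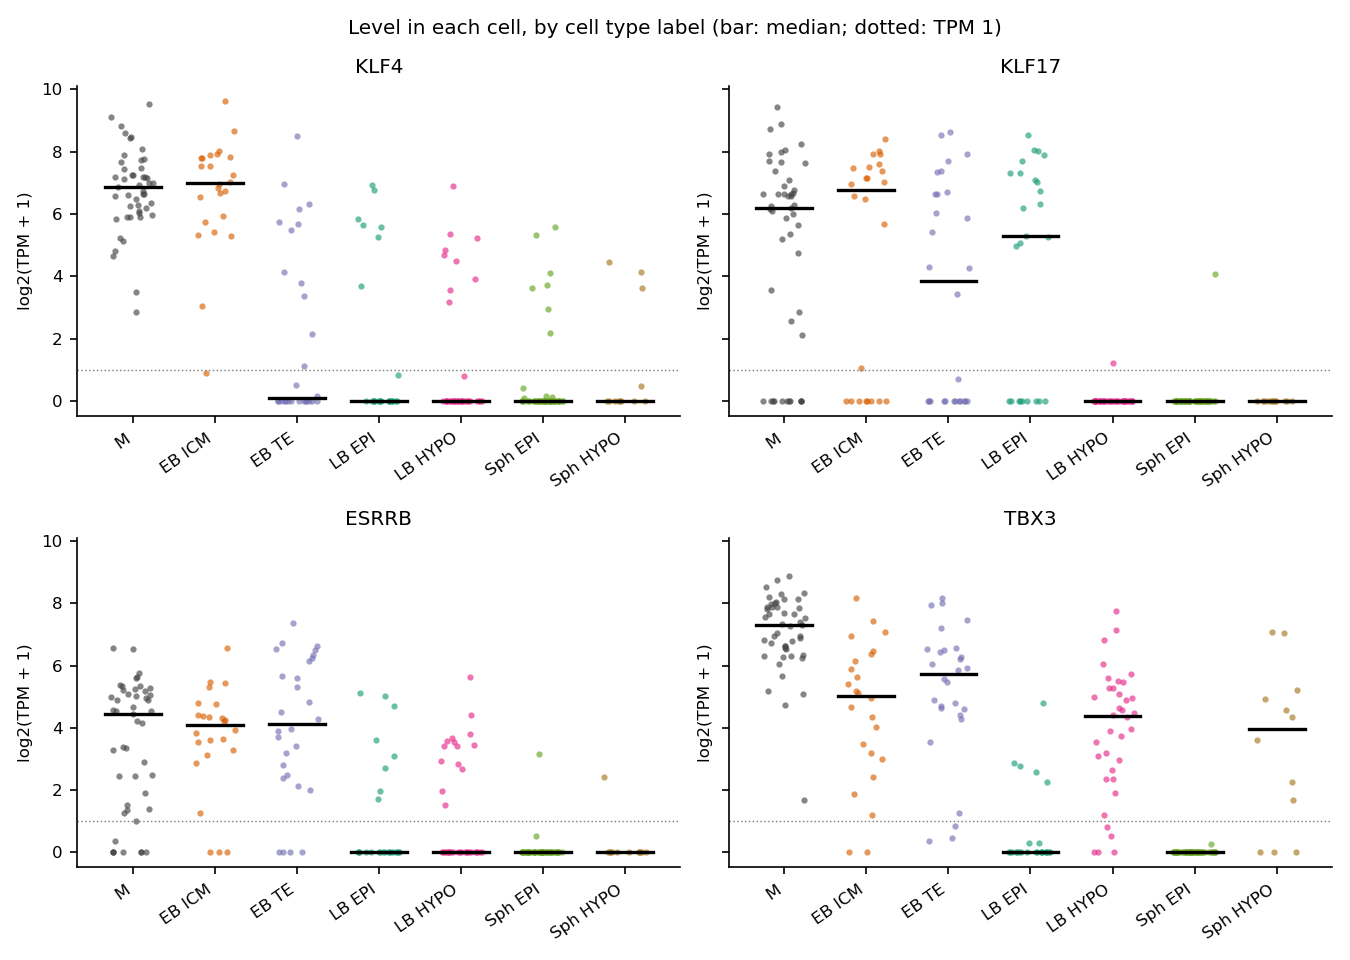
Level of each gene in each of the 220 cells as log2(TPM + 1), by cell type label, with the median of the label as a black bar and TPM 1 as a dotted line. KLF4 and TBX3 are above TPM 1 in all 47 M cells, KLF17 splits the LB EPI cells into 16 above and 9 at 0, and TBX3 is above TPM 1 in HYPO cells but in 0 of 48 Sph EPI cells.

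KLF4 RNA was in nearly all cells up to the ICM and in few cells after it. It was above TPM 1 in 47 of 47 M cells and 23 of 24 ICM cells, a share of 95.8% with an exact Clopper-Pearson 95% interval of 78.9 to 99.9%. The share was 42.9% in TE (12 of 28 cells, interval 24.5 to 62.8%), 28% in LB EPI (7 of 25) and 25% in LB HYPO (9 of 36). In Sph EPI it was 14.6% (7 of 48 cells, interval 6.07 to 27.8%), and in Sph HYPO 25% (3 of 12). These intervals cover counting error only. In LB EPI the 7 cells that held KLF4 were spread over all 4 embryos and had a median of 48.8 TPM.

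Embryo levels of KLF4 ranged from 7.61 to 10.02 in M, with a median of 8.45, and from 7.34 to 10.83 in ICM, with a median of 8.73. These ranges overlapped widely. The mean was 8.82 ± 1.05 (SD, n = 7) in ICM against 8.57 ± 0.70 (SD, n = 8) in M, and the log2 fold change of M over ICM was -0.52 (SE 0.43, adjusted p = 0.573 with edgeR). Without the sum AD, which was the highest in ICM and held 1 cell, the sign of the difference turned, at an adjusted p of 0.931. It also turned in the last 4 of 8 pools and with sums of at least 2 cells. Pools here are the 8 SLX numbers of the sample titles in numeric order. No label says that these numbers are library pools.

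In LB EPI, KLF4 was at 5.76 in embryo AN, 4.40 in AO, 5.98 in AP and 5.16 in AQ. All 4 lay below the lowest ICM embryo, a pattern found in 2.07% of all genes tested. KLF4 was higher in ICM by a log2 fold change of 3.78 (SE 0.67, adjusted p = 0.00539 with edgeR), or 13.7-fold. It was the only gene of the 4 called in this comparison, in which 2.91% of all genes were called and 1.12% were called higher in ICM. Within the first 4 and the last 4 pools the log2 fold change was 3.31 and 3.89, with adjusted p of 0.0699 and 0.170, so the difference kept its direction but passed the threshold in neither set. A fit of all 7 labels together gave an adjusted p of 0.110. Without the ICM sum AD, of 1 cell, the log2 fold change was 3.13 (adjusted p = 0.00221).

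Sph EPI levels of KLF4 were 1.94 in embryo C, 2.75 in D, 5.05 in E and 2.40 in F. Again none reached the lowest ICM embryo, which was true of 2.48% of all genes in this direction. ICM was higher by a log2 fold change of 5.70 (SE 0.94, adjusted p = 0.00202 with edgeR), with 6.73% of all genes called and 2.19% called higher in ICM. In the first 4 pools the adjusted p was 0.00395 and in the last 4 it was 0.134. A single cell of embryo E gave all 301 counts of that embryo, and without E the log2 fold change was 7.12. Without the ICM sum AD it was 5.08. LB EPI and Sph EPI overlapped, at 5.33 ± 0.71 (SD, n = 4) and 3.04 ± 1.38 (SD, n = 4), and their difference of 1.95 (SE 0.99, adjusted p = 0.411) did not pass.

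In TE, KLF4 differed more between embryos than in any other label, with an SD of 3.28 over 10 embryos. The lowest embryo was at 0, the median at 5.28 and the highest, E6-ER, at 9.30. Embryos AA, AC and AD held 1, 0 and 4 counts in 9 TE cells, although their ICM cells had 2311, 3674 and 6590 counts, while both TE cells of AI and all 3 of AH were above TPM 1. The only TE cell of E6-ER gave 2906 of the 5458 TE counts.

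ICM over TE gave KLF4 the log2 fold change 2.54 (SE 1.08), which did not pass (adjusted p = 0.169 with edgeR, 0.754% of all genes called). Without the cell of E6-ER the log2 fold change was 3.76 and the adjusted p 0.0799, and within embryos it was 6.31 with an adjusted p of 0.106. M was also above TE in the mean, by 2.06 (SE 0.99, adjusted p = 0.234), or by 3.31 without that cell (adjusted p = 0.0758). The 12 TE cells above TPM 1 for KLF4 had a median summed level of TE markers of 37608 TPM, against 49422 TPM in the other 16, and median counts per cell of 1946000 and 1993050. Their median sums of HYPO markers were 127 and 31.8 TPM. The part of these values in the KLF4 differences was not tested.

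No difference in KLF4 was detected between HYPO and EPI. LB HYPO was at 4.97 in embryo AL, 5.14 in AM, 0 in AN, 3.45 in AO and 5.35 in AP, and Sph HYPO at 0.61 in C, 0 in E and 4.38 in F. EPI was above HYPO by 0.87 (SE 1.22, adjusted p = 0.822) at the LB stage and by 0.78 (SE 1.96, adjusted p = 0.924) at the Sph stage, with overlapping embryos in both, and the sign at the Sph stage turned without EPI embryo E. From the highest to the lowest mean, KLF4 thus ran from ICM over M, LB EPI, TE, LB HYPO and Sph EPI to Sph HYPO at 1.66 ± 2.38 (SD, n = 3). M and ICM did not differ beyond their spread, and neighbours further down, such as LB EPI and TE, were not compared by a test.

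**Figure D2:**
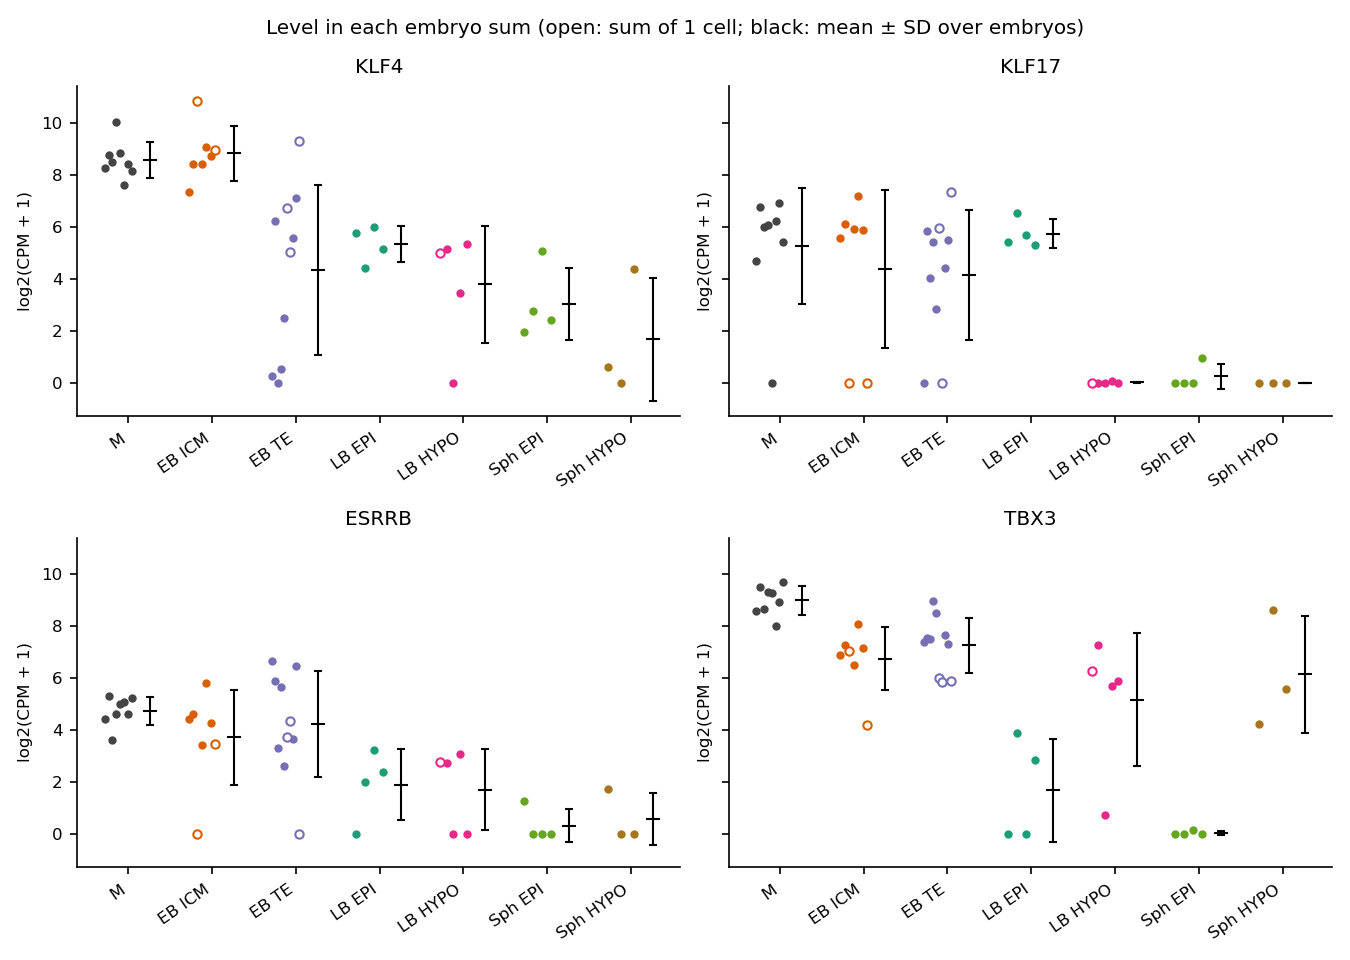
Level of each gene in each of the 41 embryo sums as log2(CPM + 1), by cell type label, with open circles for sums of 1 cell and the mean ± SD over embryos in black. KLF4 in LB EPI (4.40 to 5.98) lies below all ICM sums, KLF17 drops from 5.73 ± 0.56 in LB EPI to at most 0.93 in LB HYPO and Sph, and TBX3 is at most 0.15 in the 4 Sph EPI sums and at 0 in 2 of 4 LB EPI sums.

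KLF17 RNA was found in M, ICM, TE and LB EPI, and hardly at all in LB HYPO and in Sph embryos. Shares of cells above TPM 1 were 76.6% in M (36 of 47), 66.7% in ICM (16 of 24), 53.6% in TE (15 of 28) and 64% in LB EPI (16 of 25, interval 42.5 to 82.0%). They were 2.78% in LB HYPO (1 of 36, interval 0.0703 to 14.5%) and 2.08% in Sph EPI (1 of 48). In Sph HYPO it was 0 of 12 cells, where the share can reach 25% by a limit of 3 cells and 26.5% by the exact interval.

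Where KLF17 was present it was rarely low. In LB EPI 9 cells had 0 TPM and the other 16 ran from 30.6 to 367.6 TPM, with no cell between. Median counts per cell were 1833090 in the cells with KLF17 and 1966270 in those without. The EPI markers had a median sum of 1197 TPM in the former and 1703 TPM in the latter.

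Embryo levels of KLF17 were 5.43 in AN, 6.53 in AO, 5.66 in AP and 5.29 in AQ for LB EPI. They spanned 0 to 6.93 in M with a median of 6.01, 0 to 7.18 in ICM with a median of 5.86, and 0 to 7.34 in TE with a median of 4.91. Embryos without a count were V in M, AD and AI in ICM, and AA and AG in TE, each with 1 or 2 cells. No test separated these labels: the log2 fold change was 0.14 (SE 1.08, adjusted p = 1) for M over ICM, 0.42 (SE 1.24, adjusted p = 1) for ICM over TE, 0.61 (SE 1.03, adjusted p = 0.922) for M over TE and -0.10 (SE 1.27, adjusted p = 1) for ICM over LB EPI. Without the cell of E6-ER, which was the highest TE sum, ICM over TE was 1.01 (adjusted p = 0.904) and M over TE 1.21 (adjusted p = 0.614). With these errors a difference of several fold in either direction could have gone undetected.

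In LB HYPO, 36 cells of 5 embryos held 1 KLF17 count in all, in embryo AO, against 2797 counts in the 25 LB EPI cells. Per count sequenced this is a ratio of 3574, with a 95% counting interval of 641 to 141197. That interval treats reads as independent and leaves out the spread between cells and embryos. The embryos of the 2 labels did not overlap, as for 4.73% of all genes in this direction, and edgeR called KLF17 higher in EPI (adjusted p = 0.00269). It was the only gene of the 4 called, with 1.92% of all genes called and 0.897% called higher in EPI. The call was lost when embryos with both labels were compared within themselves (adjusted p = 0.221 with the embryo as a block, where calls over all genes fell from 283 to 20) and in the last 4 pools (adjusted p = 0.140), and it held in the first 4 pools (adjusted p = 0.0293).

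All 37 KLF17 counts of Sph EPI came from 1 cell of embryo F, at 15.98 TPM, and embryos C, D and E had none. Every LB EPI embryo lay above every Sph EPI embryo, which was true of 2.64% of all genes. LB EPI over Sph EPI gave the log2 fold change 7.90 (SE 1.82, adjusted p = 0.141) and ICM over Sph EPI 7.73 (SE 2.42, adjusted p = 0.0679), both short of the threshold, with 0.156% of all genes called in the former. Without embryo F, where Sph EPI then holds no count, the adjusted p was 0.0339 for LB EPI and 0.0488 for ICM. For ICM it also passed without AD or AI, the 2 sums of 1 cell that had no KLF17, at 0.0388 and 0.0464. Sph HYPO had no KLF17 count. With 3 counts set over all of Sph HYPO, the pooled counts of Sph EPI were at least 2.73-fold higher. That bound rests on the 1 Sph EPI cell with KLF17, and no difference between the labels was detected (adjusted p = 0.496 with edgeR). Mean levels ran from LB EPI over M, ICM, TE, Sph EPI and LB HYPO to Sph HYPO. Neither M and ICM nor ICM and TE were told apart, and LB EPI was not compared with M by a test.

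ESRRB RNA was present in most cells of M, ICM and TE alike, at lower TPM than the other 3 genes in M and ICM. It was above TPM 1 in 83.0% of M (39 of 47), 87.5% of ICM (21 of 24) and 85.7% of TE cells (24 of 28, interval 67.3 to 96.0%). Shares were 32% in LB EPI (8 of 25) and 38.9% in LB HYPO (14 of 36). In Sph EPI 1 of 48 cells and in Sph HYPO 1 of 12 were above TPM 1.

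Embryo levels of ESRRB in M were tight, from 3.63 to 5.30 with a median of 4.81, whereas ICM spanned 0 to 5.82 (median 4.27) and TE 0 to 6.67 (median 4.04). The zeros were single cells, of AD in ICM and of E6-ER in TE. The means of M, TE and ICM were 4.74 ± 0.55 (SD, n = 8), 4.24 ± 2.05 (SD, n = 10) and 3.72 ± 1.83 (SD, n = 7). ICM minus TE was -0.83 (SE 1.14, adjusted p = 0.976), M minus ICM 0.41 (SE 0.83, adjusted p = 0.913) and M minus TE -0.38 (SE 0.87, adjusted p = 0.980), so no difference was detectable between these 3 labels. Without the cell of E6-ER, ICM minus TE was -0.99 (adjusted p = 0.812) and M minus TE -0.52 (adjusted p = 0.817). In TE the highest levels were those of AA (93.3 TPM in the mean of 2 cells) and AI (80.4 TPM in 2 cells).

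In LB EPI, ESRRB was at 0 in AN, 2.00 in AO, 3.22 in AP and 2.40 in AQ. LB HYPO was at 2.76 in AL, 2.73 in AM, 0 in AN, 3.07 in AO and 0 in AP. Neither set stood apart from the other, and the log2 fold change was 0.0039 (SE 2.002, adjusted p = 1), a value whose sign turned with several of the settings tried. ICM was above LB EPI by 2.28 (SE 1.63, adjusted p = 0.488), with overlapping embryos.

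In Sph EPI only embryo C had ESRRB counts, 44 in all and 43 of them in 1 cell, and in Sph HYPO only C had counts, 9 in 1 cell. ICM over Sph EPI gave 5.73 (SE 2.23, adjusted p = 0.120), LB EPI over Sph EPI 3.53 (SE 2.50, adjusted p = 0.598) and Sph EPI over Sph HYPO -1.13 (SE 2.75, adjusted p = 0.918). Without embryo C the first of these passed the threshold (adjusted p = 0.0429). The order of the means was M, TE, ICM, LB EPI, LB HYPO, Sph HYPO and Sph EPI, at 0.32 ± 0.63 (SD, n = 4).

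TBX3 RNA was higher in M than in ICM, and in Sph embryos it was found in HYPO but, for 1 count, not in EPI. It was above TPM 1 in 47 of 47 M cells, 91.7% of ICM (22 of 24) and 89.3% of TE cells (25 of 28). In LB the shares were 20% in EPI (5 of 25, interval 6.83 to 40.7%) and 86.1% in HYPO (31 of 36, interval 70.5 to 95.3%). In Sph they were 0 of 48 EPI cells, where the share can reach 6.25% by a limit of 3 cells and 7.40% by the exact interval, and 75% in HYPO (9 of 12, interval 42.8 to 94.5%).

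**Figure D3:**
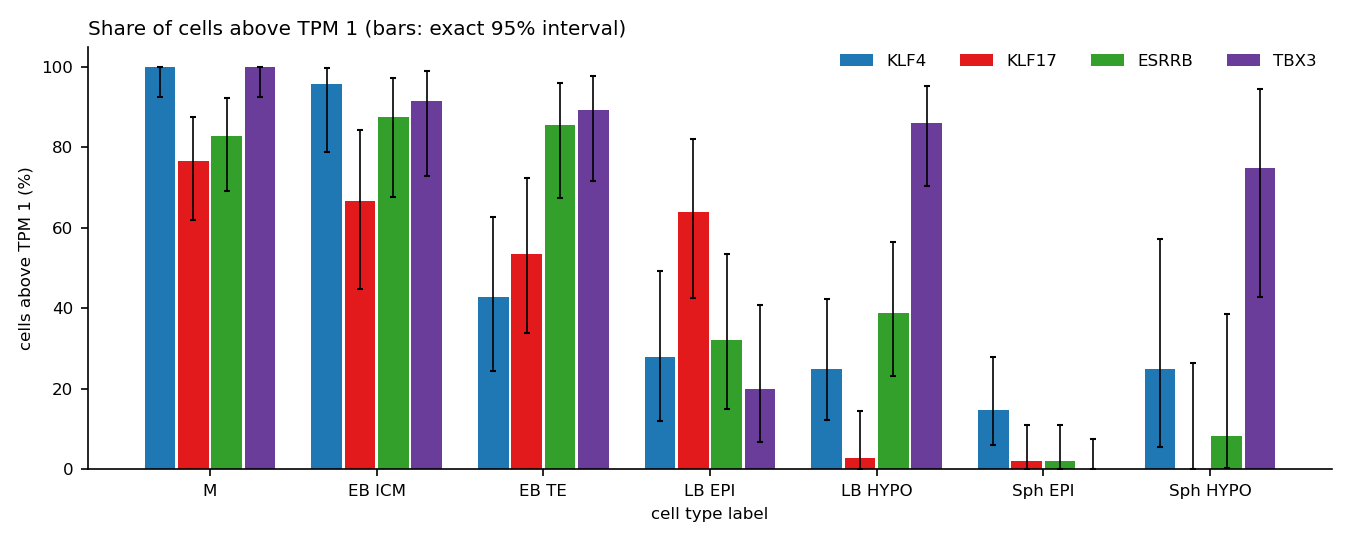
Share of cells above TPM 1 for each gene and cell type label, in percent, as bars from 0 with exact 95% intervals. TBX3 is at 86.1% and 75% in the HYPO labels against 20% and 0% in the EPI labels, and KLF17 is at 64% in LB EPI against 2.78% in LB HYPO.

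M embryos had TBX3 levels from 8.02 to 9.70 with a median of 9.10, and ICM embryos from 4.21 to 8.08 with a median of 7.03. Only the lowest M embryo, W, fell below the highest ICM embryo, AF. M was higher by a log2 fold change of 1.98 (SE 0.40, adjusted p = 0.00962 with edgeR), or 3.95-fold. TBX3 was the only gene of the 4 called, with 2.45% of all genes called and 0.971% called higher in M. Within the first 4 pools the log2 fold change was 2.57 (adjusted p = 0.0653) and within the last 4 it was 1.30 (adjusted p = 0.131), the same direction, with the threshold passed in neither set. A fit of all 7 labels together gave an adjusted p of 0.121.

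TE embryos ranged from 5.84 to 8.95 in TBX3, with a median of 7.45. M over TE gave 1.49 (SE 0.40, adjusted p = 0.0706, 0.808% of all genes called), which passed only without embryo AD among the embryos left out in turn (adjusted p = 0.0348). ICM and TE overlapped, with a difference of -0.54 (SE 0.54, adjusted p = 0.844) whose sign turned in the last 4 pools, at 0.71. Without the TE-labelled cell of E6-ER, at 28.9 TPM, M over TE was 1.39 (adjusted p = 0.0575) and ICM over TE -0.65 (adjusted p = 0.673).

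In LB EPI, TBX3 was at 0 in AN and AP, 3.88 in AO and 2.85 in AQ. Of 276 counts, 115 came from 1 cell of AQ, and 4 of 5 cells of AO were above TPM 1. All 4 embryos lay below all ICM embryos, as for 2.07% of all genes, yet the difference of 4.66 (SE 1.45) had an adjusted p of 0.105 with edgeR. A fit of all 7 labels together, which shares 1 estimate of the spread, gave 0.0153. Sph EPI held 1 TBX3 count in 48 cells, in embryo E, and no embryo reached the lowest of ICM, as for 2.48% of all genes. ICM held 8399 counts, a ratio per count sequenced of 18288 (95% counting interval 3281 to 722423), and TBX3 was called (adjusted p = 0.0001 with edgeR), with 6.73% of all genes called and 2.19% called higher in ICM. It was called in each set of pools too, at 0.00864 and 0.000193. All 4 Sph EPI embryos had cells in both sets, so these calls are not independent of each other. LB EPI over Sph EPI, 276 counts against 1, was a ratio of 619.7 (interval 110 to 24566) that did not pass (adjusted p = 0.359).

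TBX3 was found in most HYPO embryos. In LB HYPO it was at 6.27 in AL, 7.26 in AM, 0.72 in AN, 5.70 in AO and 5.91 in AP, and in Sph HYPO at 4.22 in C, 8.63 in E and 5.57 in F. Embryo AN was apart from the others, with 3 counts in 3 HYPO cells, and also had 0 counts in its 2 EPI cells. The 5 LB HYPO cells at or under TPM 1 had a median sum of HYPO markers of 1636 TPM, against 929 TPM in the 31 cells above it.

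LB EPI minus LB HYPO was -3.81 (SE 1.78, adjusted p = 0.250), and AN was the only HYPO embryo within the range of EPI. At the Sph stage the 2 labels did not overlap, as for 4.22% of all genes with HYPO above EPI, and TBX3 was called higher in HYPO (adjusted p = 0.0115 with edgeR, 1.13% of all genes called and 0.571% called higher in HYPO), with 2059 counts in HYPO and 1 in EPI, a ratio of 9291 (95% counting interval 1666 to 367136). It held with the embryo as a block (adjusted p = 0.0243) and in the last 4 pools (0.00819), but not in the first 4 (0.179), nor without the EPI sum of E (0.0734) or the HYPO sum of E (0.0689), nor with limma on mean log2(TPM + 1) (0.198). Over all genes the median was 0.57 on the log2 scale, higher in EPI. The 6 HYPO markers had a median sum of 1435 TPM in Sph HYPO and 10.8 TPM in Sph EPI. The Sph HYPO cells also had high TE markers. The median summed level of the 8 was 31738 TPM (15777 to 71005), against 7651 TPM (1462 to 17402) in Sph EPI. The study also lists DAB2, 1 of the 8, as a HYPO gene. KRT8, KRT18, CLDN4, DAB2 and GATA3 were above TPM 1 in 9 to 12 of the 12 cells, and the CLDN4 median of 668 TPM was above that of TE, 382 TPM. GATA2 and TFAP2A had medians of 0, against 111 and 109 TPM in TE, and CDX2 was at 0, as it was in most TE cells. The part of these markers in the TBX3 result was not tested.

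The difference between EPI and HYPO was not shown to change from LB to Sph for any of the 4 genes, with 0.0408% of all genes called (6 genes). The adjusted p was 0.310 for TBX3 and 1 for the other 3 genes with edgeR, and at an unadjusted p under 0.05 only TBX3 passed. DESeq2 gave TBX3 an adjusted p of 0.00691, and limma on mean log2(TPM + 1) gave KLF17 0.00564. For KLF17 the size could not be fitted, since Sph HYPO held no count. By the study's sex calls, most LB HYPO cells were female, while all Sph HYPO and most Sph EPI cells were male. LB EPI held both sexes in similar number. The part of sex in the comparisons of EPI with HYPO was not tested.

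Set together, M and ICM against LB EPI and Sph EPI, all 4 genes were called higher in the earlier cells. Of all genes tested 21.8% were called, 7.4% in that direction (1090 genes) and 14.3% in the other. The study names these genes as naive markers from the same cells, so the count is not independent evidence of the direction. KLF4 was higher by a log2 fold change of 4.48 (SE 0.54, adjusted p = 1.57e-06), KLF17 by 3.96 (SE 1.17, adjusted p = 0.0172) and ESRRB by 4.30 (SE 1.18, adjusted p = 0.0111). TBX3 had an adjusted p of 1.28e-07, and its size is not given because Sph EPI held 1 count.

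For KLF17 this average joins LB EPI, at 5.73 ± 0.56 (SD, n = 4), with Sph EPI, at 0.23 ± 0.46 (SD, n = 4). Without Sph EPI embryo F the KLF17 value was 6.18 and without Sph EPI embryo C the ESRRB value was 6.79, both over 1.5 times the value with all embryos. In the first 4 pools KLF17 was at 3.31 with an adjusted p of 0.140, and in the last 4 at 6.54 with 2.06e-05. With limma on mean log2(TPM + 1) its adjusted p was 0.235. The other 3 genes were called in both sets of pools, which share embryos.

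**Figure D4:**
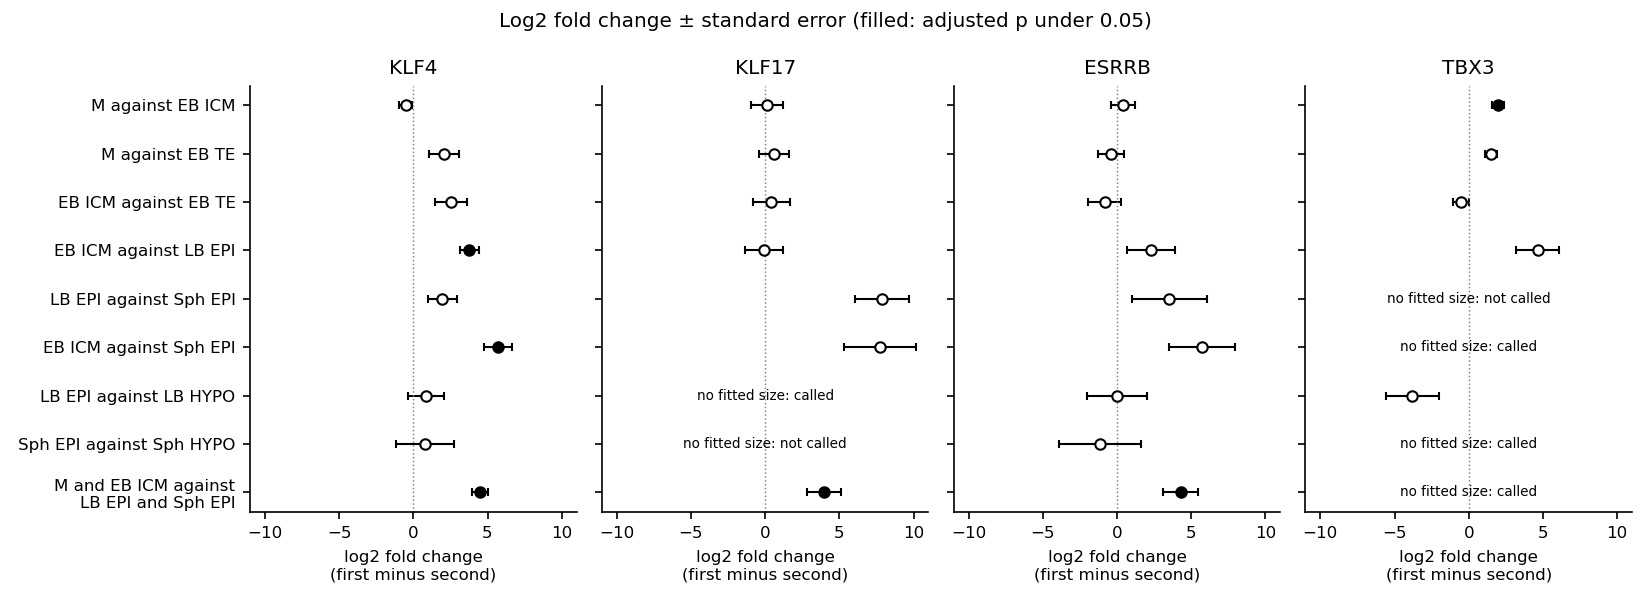
Log2 fold change ± standard error of each gene in the comparisons between labels, first minus second, with filled points for adjusted p under 0.05 from edgeR. KLF4 is called in ICM against both EPI labels, TBX3 in M against ICM, and all 4 genes in M and ICM against EPI. No fitted size is drawn where a label held 3 counts or fewer.

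In the cells themselves, the 4 genes were found together mostly early. All 4 were above TPM 1 in 30 of 47 M cells (63.8%), 13 of 24 ICM cells (54.2%) and 5 of 28 TE cells (17.9%), and every M and ICM cell held at least 2. In LB EPI no cell held all 4, 2 held 3 and 12 held 1. In LB HYPO 1 of 36 cells held all 4, 1 held 3 and 18 held 2. In Sph EPI 39 of 48 cells (81.2%) held none and the other 9 held 1 gene each, KLF4 in 7 of them. Median counts per cell were 2136634 in M and 2235586 in Sph EPI.

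The combinations differed between the lineages. In LB EPI the most frequent was KLF17 alone (6 of 25 cells), and KLF4 and ESRRB were never above TPM 1 in the same cell, with 7 and 8 cells each. In LB HYPO the most frequent were ESRRB with TBX3 (12 of 36 cells), TBX3 alone (11) and KLF4 with TBX3 (6). All 14 HYPO cells with ESRRB had TBX3, as did 31 of 36 HYPO cells in all. In Sph HYPO 6 of 12 cells had TBX3 alone and 3 had KLF4 with TBX3. These are counts of cells from few embryos, and no test was made on them.

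**Figure D5:**
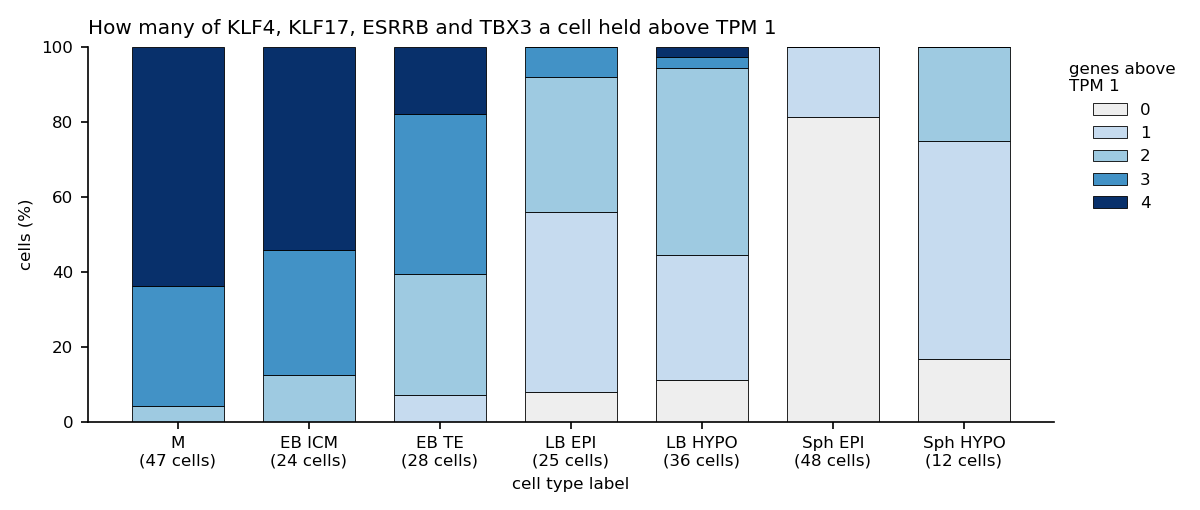
Share of cells, in percent, that held 0 to 4 of the genes above TPM 1, stacked to 100 for each cell type label. All 4 genes are found together in 63.8% of M and 54.2% of ICM cells, and 81.2% of Sph EPI cells hold none.

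Across the 41 sums, the 4 genes were only partly alike. Pearson's r of the log2 levels was 0.64 for ESRRB and TBX3, 0.50 for KLF4 and KLF17, 0.48 for KLF17 and ESRRB, 0.36 for KLF4 and TBX3, 0.34 for KLF17 and TBX3 and 0.31 for KLF4 and ESRRB. The sums share embryos, stages and libraries, so these values are a description. For each gene, many other named genes had a pattern more like it than the other 3 did: ESRRB was 60th in likeness to TBX3, and KLF17 118th in likeness to KLF4.

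The 5 named genes most like KLF4 were SPIC (r = 0.77), BAD (0.77), PRRC2C (0.75), KPNA3 (0.73) and RUNX1T1 (0.73). SPIC, an ETS family factor, averaged 8.03 ± 0.60 in ICM and 6.62 ± 0.95 in M, against 1.61 ± 2.64 in TE and 0.32 ± 0.64 in Sph EPI. Among those most like KLF17 were ASS1 (0.69), the argininosuccinate synthase of the urea cycle, BRDT (0.69), a testis bromodomain protein, PMM1 (0.69) and BAD (0.68). BAD, a pro-apoptotic BCL2 relative, was thus in both lists.

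ESRRB was most like its own relative ESRRG (0.80), followed by TIMD4 (0.80), INPP4A (0.80), KRT32 (0.78) and CLDN8 (0.78). TBX3 was most like PHYHD1 (0.87), the gap junction gene GJB5 (0.85), BLVRB (0.79), UBASH3B (0.79) and the creatine transporter SLC6A8 (0.78). GJB5 shared the split between lineages, at 5.92 ± 0.26 in LB HYPO and 0.94 ± 1.603 in LB EPI.

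Of 16 other genes tied to naive pluripotency, 7 matched an entry and were tested. KLF5 and TFCP2L1, which the study reports as lower in EPI, did not match, nor did TET2, reported as lower in late EPI. PRDM14, which the study names as an exception with the opposite trend, is among the 7. Values over the 7 thus describe the matched genes only. In M and ICM against EPI, TFAP2C alone was called higher in the earlier cells, by 3.04 (SE 0.39, adjusted p = 4.01e-06), and GBX2 and FGF4 were called higher in EPI (adjusted p = 0.00321 and 0.00938). Over all genes 7.4% were called higher in the earlier cells and 14.3% in EPI. The median log2 fold change of the 7 was -3.24, against -0.18 over all genes. It was the same with GBX2, which had no count in M and ICM, set to its bound. TFAP2C, an AP-2 factor of naive cells and of trophoblast, was above TPM 1 in all M, ICM and TE cells, 24 of 25 LB EPI cells and 31 of 48 Sph EPI cells.

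PRDM14 and NR5A2 had their highest means in LB EPI, at 5.46 ± 1.52 and 4.78 ± 1.70 (SD, n = 4), and neither passed the test against ICM. PRDM14, a germline and pluripotency repressor, was above TPM 1 in 4 of 24 ICM, 13 of 25 LB EPI and 34 of 48 Sph EPI cells. FGF4, a growth factor of the epiblast, was in 2 ICM, 14 LB EPI and 5 Sph EPI cells, and GBX2 in 0, 11 and 3. DPPA5, called in no comparison, was in 15 ICM, 16 LB EPI and 20 Sph EPI cells, and NR0B1 was in 2 M, 2 LB EPI and 1 Sph EPI cells. Between ICM and LB EPI, the median of the 7 was -2.99, against -0.11 over all genes, and none was called. TFAP2C was called higher in LB EPI than in LB HYPO, as KLF17 was, and PRDM14 higher in Sph EPI than in Sph HYPO.

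Genes tied to primed pluripotency moved the other way in part. The study names NODAL, DNMT3B, SALL2 and SFRP2 as primed markers from the same cells, and reports from them that DNMT3A rises in EPI. Calls of these genes are thus not independent evidence of the direction. Of 17 listed, 13 matched and 12 were tested, with a median of -3.81 in M and ICM against EPI. There 8 were called higher in EPI, among them NODAL, DNMT3A, DNMT3B, SALL2, SFRP2, LEF1 and SOX11, and 1, OTX2, was called higher in the earlier cells, with 14.3% and 7.4% of all genes called in these directions. DNMT3B, a de novo DNA methyltransferase, was lower in ICM than in LB EPI by -4.90 (SE 0.60, adjusted p = 0.000306), in the comparison in which KLF4 was higher. OTX2, a homeobox factor of primed cells, was higher in ICM than in LB EPI by 2.58 (SE 0.43, adjusted p = 0.00362). In LB EPI against HYPO, NODAL and DNMT3B were among the genes called with KLF17.

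Relatives of the 4 genes were tested in the same way. Of 16 other KLF genes 8 matched and 6 were tested, and in M and ICM against EPI the only one called was KLF7, with a log2 fold change of -3.52 (SE 0.88, adjusted p = 0.00600), higher in EPI, where 14.3% of all genes were called in that direction and 7.4% in the other. KLF7 was above TPM 1 in 10 of 24 ICM and 44 of 48 Sph EPI cells. KLF10 was in 45 of 47 M, 22 of 24 ICM and 25 of 48 Sph EPI cells and was called in no comparison. The median of the 6 was 0.14 against -0.18 over all genes. KLF5, which the study reports as lower in EPI, did not match an entry.

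Of 18 relatives of ESRRB and TBX3, 14 matched and 5 were tested, with a median of 0. ESRRG was called higher in M and ICM than in EPI, by 4.63 (SE 1.001, adjusted p = 0.00192), and was above TPM 1 in 45 of 47 M, 22 of 24 ICM and 19 of 28 TE cells against 2 of 25 LB EPI cells. EOMES, a T-box factor of mesoderm and endoderm, was called higher in Sph EPI than in ICM (adjusted p = 0.0495), with 13 of 48 Sph EPI and 10 of 12 Sph HYPO cells above TPM 1. ESRRA, TBX4 and MGA were called in no comparison.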

How the data were processed

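The authors trimmed the Smart-seq2 reads with scythe and sickle, aligned them to the pig genome (Sscrofa10.2) with HISAT2 2.1.0, counted uniquely mapped reads on Ensembl genes with HTSeq and removed cells of low quality. They deposited counts per gene and cell, not normalized, and the TPM values the authors derived from them. Both tables were used as deposited. Symbols came from a table of Ensembl names that covered 11437 identifiers, and 16 entries were added and named by the authors. No coordinates or sequences are given, as no genome of this build was used here.

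The 4 genes, the gene lists and the tests were chosen with earlier results of these data known. Counts were summed by embryo and label, filtered (TPM over 1 in at least 3 cells), scaled with TMM and tested by the quasi-likelihood method of edgeR 4.0.16 (glmQLFit, glmQLFTest; R 4.3.3). P-values were adjusted after Benjamini and Hochberg over 14721 genes, with 0.05 as the threshold. Log2 fold changes are first label minus second, and SE is its size over the square root of F. Where a label held 1 to 3 counts, a ratio of pooled counts with an exact 95% interval is given. Against 0 counts it is a bound with 3 counts over the group. These intervals treat reads as independent and leave out the spread between cells and embryos. Labels do not say whether embryos of a stage shared a sow, so p-values measure the spread between these embryos. The genes named are the 4, those of the lists, and the 5 named genes with the highest Pearson's r over the 41 sums. Some genes that this rule names are not reported here.

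ICM with TE, and EPI with HYPO, partly came from the same embryos. In residuals from the label means, the median correlation within such pairs was 0.055 for the 7 pairs of EB, 0.0081 for the 3 of LB and 0.023 for the 3 of Sph, and 1, 0 and 1 of them exceeded 0.1. The block follows from the shared embryo. The embryo entered as a block among the alternatives. These were DESeq2 1.42.0, DESeq2 size factors, no filter, limma 3.58.1 on mean log2(TPM + 1) (with the deposited TPM), sums of at least 2 cells, leaving out cells of less certain embryo, the M cell without an embryo as its own embryo, the first 4 or the last 4 pools, all 7 labels in 1 model, and each embryo left out. Shares without the M cell and the TE cell in doubt were added after seeing the data. On simulated data with 200 of 14721 genes changed 8-fold, edgeR recovered 45% for M against ICM (1 false call), 29.5% for ICM against TE (1), 33.5% for ICM against LB EPI (3) and 33% for LB EPI against LB HYPO (11). The changed genes were drawn from those with a higher mean level, and the spread was that estimated by edgeR. Recovery of scarcer genes was not measured. No cells had identical counts. Intervals used scipy 1.17.1, tables pandas 2.3.3 and plots matplotlib 3.10.9 under Python 3.11.15.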

Additional observations from a re-analysis of the deposited data

Results flagged for a closer look

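A rule that flags about 1 in 20 groups of normally distributed values was applied to 24 groups of 4 to 10 embryos. That rate does not hold here, since any count is flagged where all other embryos are at 0. The flags are thus a description. An embryo far from the others for their range was found in 8 groups. In 4 of them a single embryo held all the counts of the label: KLF17 in LB HYPO (embryo AO, log2 level 0.056, 1 count), KLF17 in Sph EPI (F, 0.93), ESRRB in Sph EPI (C, 1.27) and TBX3 in Sph EPI (E, 0.15, 1 count). In the other 4 an embryo was low: KLF17 in M (V, 0, with 2 cells), ESRRB in EB ICM (AD, 0, with 1 cell), TBX3 in EB ICM (AI, 4.21, with 1 cell) and TBX3 in LB HYPO (AN, 0.72, with 3 cells). The M cell that could not be placed in an embryo, and so entered no comparison, held 138.6 TPM of KLF4, 40.4 TPM of KLF17 and 259.9 TPM of TBX3, and 0 counts of ESRRB, which lay within the ranges of the other M cells.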

How the results depend on the processing

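Over 40 tests (4 genes in 10 comparisons), 833 of 911 alternatives kept direction and side of the threshold, 15 lost a call, 23 gained one and 40 turned the sign, and 15 tests kept both throughout. Values are adjusted p, and the cause of a change was not tested. DESeq2 gained TBX3 in M–TE (0.0177), ICM–LB EPI (0.00297) and the LB–Sph difference of EPI–HYPO (0.00691), KLF17 in LB–Sph EPI (2.35e-05) and ICM–Sph EPI (0.00132), and ESRRB in ICM–Sph EPI (0.00440). Its calls over all genes were more numerous too (1384 against 283 for LB EPI–HYPO). On data simulated with edgeR's estimates of the spread it made 101 to 206 false calls. Since that spread was edgeR's own and no scarce genes were changed, this cannot decide whether the calls gained here are false.

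On mean log2(TPM + 1), limma gained TBX3 in M–TE (0.0191) and ICM–LB EPI (0.00599), KLF17 in LB–Sph EPI (0.0326) and the LB–Sph difference (0.00564) and ESRRB in ICM–Sph EPI (0.0211). It lost TBX3 in Sph EPI–HYPO (0.198) and KLF17 in M and ICM–EPI (0.235), and turned ESRRB in M–TE (1) and LB EPI–HYPO (0.902), KLF17 in ICM–TE (1) and KLF4 in the LB–Sph difference (1). With all 7 labels in 1 model, TBX3 in M–ICM (0.121) and KLF4 in ICM–LB EPI (0.110) were lost, and TBX3 in ICM–LB EPI (0.0153), LB–Sph EPI (0.0124) and the LB–Sph difference (0.0375) and KLF17 in ICM–Sph EPI (0.0249) gained.

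The first 4 pools lost TBX3 in M–ICM (0.0653) and Sph EPI–HYPO (0.179), KLF4 in ICM–LB EPI (0.0699) and KLF17 in M and ICM–EPI (0.140), and turned ESRRB in M–TE (1) and LB EPI–HYPO (1) and KLF4 in the LB–Sph difference (0.965). The last 4 lost TBX3 in M–ICM (0.131), KLF4 in ICM–LB EPI (0.170) and ICM–Sph EPI (0.134) and KLF17 in LB EPI–HYPO (0.140), gained KLF17 in ICM–Sph EPI (0.00150), and turned KLF4 (0.820) and KLF17 (1) in M–ICM, TBX3 in ICM–TE (0.867), KLF17 in ICM–LB EPI (0.907) and ESRRB in Sph EPI–HYPO (0.683) and the LB–Sph difference (1). Each set holds fewer cells, and the sets share embryos. Sums of at least 2 cells gained KLF17 in ICM–Sph EPI (0.0133) and turned KLF4 (0.831) and KLF17 (0.955) in M–ICM and KLF17 in ICM–LB EPI (0.775). Without cells of less certain embryo, ESRRB in LB EPI–HYPO turned (1).

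With the embryo as a replicate block, KLF17 in LB EPI–HYPO was lost (0.221) and KLF4 in the LB–Sph difference turned (1), and no other call changed in the 16 fits.

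Leaving out 1 embryo at a time gave these ranges where a call or sign changed: in M–ICM 0.229 to 0.931 for KLF4 and 0.901 to 1 for KLF17; in M–TE 0.0348 to 0.113 for TBX3; in ICM–TE 0.904 to 1 for KLF17; in ICM–LB EPI 0.945 to 1 for KLF17; in LB–Sph EPI 0.0339 to 0.269 for KLF17. In ICM–Sph EPI they were 0.0388 to 0.134 for KLF17 and 0.0429 to 0.218 for ESRRB, and in LB EPI–HYPO 0.998 to 1 for ESRRB. In Sph EPI–HYPO they were 0.255 to 1 for KLF4, 0.475 to 1 for ESRRB and 0.00617 to 0.0734 for TBX3, and in the LB–Sph difference 0.416 to 1 for KLF4 and 0.560 to 1 for ESRRB.

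DESeq2 gave no adjusted p for KLF4, KLF17 and ESRRB in Sph EPI–HYPO, and 2 fits of KLF17 there held no count. Of 120 alternatives for shares of cells, 14 moved beyond the interval. For KLF4, KLF17 and ESRRB, 3 of the 5 genes most alike, and for TBX3 4, were shared with the scale of mean log2(TPM + 1). Labels held 3 to 10 embryos, and calls lost with fewer pools kept their direction.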
